A study of Mus musculus with 4 samples.

Results

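DNA transposon copies were examined in RNA-seq libraries of mouse embryonic stem cells (ESCs) that lack the telomerase RNA gene Terc and of WT ESCs. Copies were taken by their repeat names, which had to start with Charlie, Tigger, URR1, MER5A, MER5B, MER20, MER58, MER3, Arthur, Zaphod or Cheshire. This rule took 114502 of the 3658072 transposable element (TE) copies counted, under 99 of 1072 repeat names. The prefix MER3 also took 8 names of MER31 and MER34, which are long terminal repeat (LTR) elements and not DNA transposons, with 3533 copies. These were kept apart, and 110969 copies under 91 names remained as DNA transposons. Other DNA transposon names lie outside the rule and were not analysed here.

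The libraries came from G3 Terc-/- ESCs (line F35, genotype Terc knockout) and from WT ESCs (line N12), both of strain C57BL/6, with 2 libraries of each genotype. All cells were cultured on a feeder layer in medium with FBS and LIF. G3 stands for the third generation without telomerase, and the study derived these cells from G2 Terc-/- mice. Each genotype was represented by 1 line, so that genotype and line cannot be told apart, and the labels do not say whether the 2 libraries of a line came from separate cultures. If they did not, the p-values measure only technical spread. Poly(A) RNA was sequenced.

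DNA transposons move by a cut-and-paste mechanism, in which a transposase encoded by an autonomous copy recognises the terminal inverted repeats of the element, excises it and inserts it elsewhere. The names studied here fall by convention into the hAT-Charlie superfamily (Charlie, URR1, MER5A, MER5B, MER20, MER58, MER3, MER33 and Cheshire), the hAT-Tip100 superfamily (Arthur and Zaphod) and the TcMar-Tigger superfamily (Tigger). Most of the MER names are short elements without a transposase gene, and URR1 is specific to rodents. All are regarded as immobile fossils in the mouse genome, and their sequence is commonly transcribed as part of introns and untranslated regions of host genes. MER20 is known as a source of regulatory sequence in uterine cells of placental mammals. Host genes have also been built from old transposases, such as Cenpb from a pogo-like element.

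Gene counts per library ranged from 18047995 to 22520017 and TE counts from 1805047 to 2104586. G3 replicate 2 had the fewest of both, and the counts printed below are not scaled for depth unless given as CPM or as a share. The count of Terc was 7 and 2 in WT and 0 in each G3 Terc-/- library, and a 0 leaves room for up to 3 counts. All 10 pluripotency markers were detected, at 6125 to 6188 CPM in sum (counts scaled to 1000000 gene counts) in WT and 7758 to 8044 in G3 Terc-/- libraries. The 12 feeder fibroblast markers summed to 154 to 236.7 CPM in WT and 201.5 to 295.1 in G3 Terc-/- libraries, the 8 primitive endoderm markers to 32.2 to 35.3 and 17.1 to 23.7, and the 6 trophectoderm markers to 209.5 to 209.7 and 154.7 to 154.8. The part of these cell types in the values below was not tested, and in bulk RNA fewer cells of a type and less RNA per cell cannot be told apart.

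The share of TE counts held by DNA transposons differed between genotypes by less than the spread of the replicates. They took 58344 and 59256 counts in WT against 58397 and 50702 in G3 Terc-/- libraries. The share was 2.82% ± 0.0128 (SD, n = 2) of all TE counts in WT against 2.82% ± 0.0130 (SD, n = 2) in G3 Terc-/- ESCs, a difference of -0.00653 percentage points that was smaller than either SD (p = 0.667, exact two-sided permutation test, for which the smallest possible p is 0.3333). Relative to the gene counts, the level in CPM of the gene counts was 2645 and 2631 in WT against 2667 and 2809 in G3 Terc-/- libraries. On that scale both G3 Terc-/- libraries lay above both WT libraries (p = 0.3333, exact permutation test), as TE counts in total did, at 9.33% and 9.35% of the gene counts in WT against 9.43% and 10.001% in G3 Terc-/- libraries. The MIR, L2 and L3 repeats, which are likewise old and immobile, stood at 8.03% ± 0.00266 (SD, n = 2) of TE counts in WT against 7.87% ± 0.246 (SD, n = 2) in G3 Terc-/- ESCs. For every 100 of their counts, DNA transposons had 35.3 and 35.1 counts in WT against 35.2 and 36.5 in G3 Terc-/- libraries, so that the ranges overlapped (p = 0.667, exact permutation test).

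The named groups differed in size far more than between genotypes. URR1, the rodent-specific element, held 25.2% of all DNA transposon counts with 31.1% of the copies, Tigger 20.3% with 16.2% and Charlie 18.9% with 14.7%. These are totals, which grow with the number and length of copies, and copy lengths were not known. The share of URR1 in TE counts was 0.721% and 0.722% in the WT libraries against 0.696% and 0.704% in the G3 Terc-/- libraries, and the genotypes did not overlap. Tigger went the other way, at 0.558% and 0.566% in WT against 0.585% and 0.582% in G3 Terc-/- libraries, again without overlap. MER5A was at 0.279% and 0.272% in WT against 0.265% and 0.257% in G3 Terc-/- libraries. Each of these differences had the smallest possible p (0.3333, exact permutation test), which lies above any usual threshold. For Charlie, MER20, MER58, Cheshire, Arthur, Zaphod and the pair MER3 and MER33 the libraries of the genotypes overlapped, whereas MER5B, at 0.101% and 0.0973% in WT against 0.102% and 0.103% in G3 Terc-/- libraries, was the last of the 11 groups without overlap. Single families did not overlap between the genotypes in 36.5% (higher) and 23.8% (lower) of all families tested, so that 4 of 11 groups is not more than is seen across TE families.

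**Figure D1:**
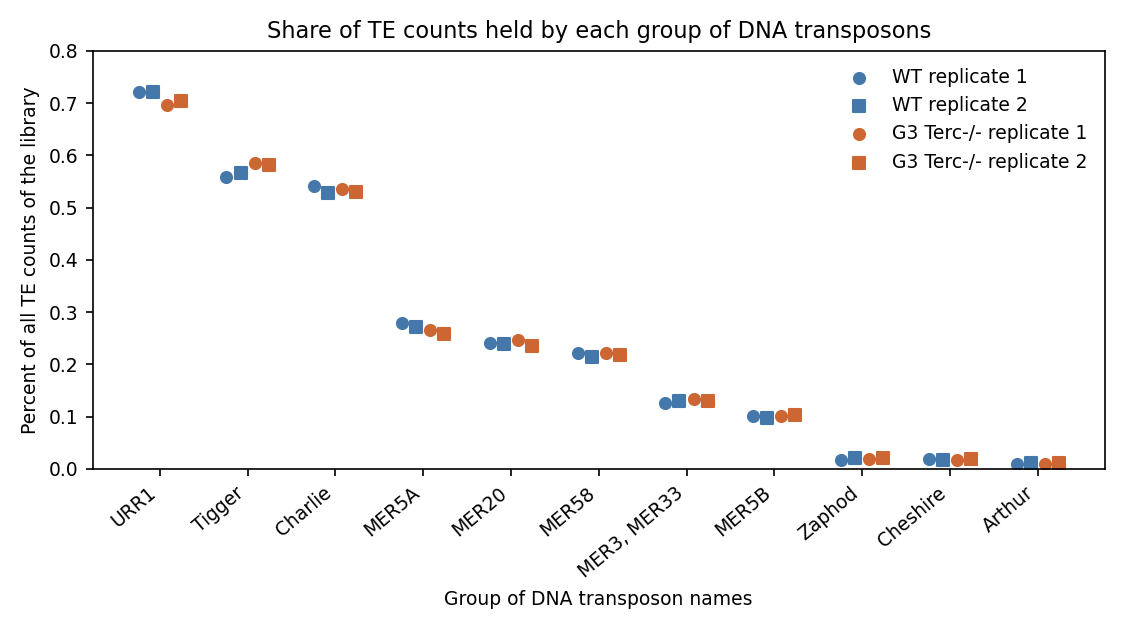
Percent of all TE counts of a library (vertical axis, starting at 0) held by each of 11 groups of DNA transposon names, with 1 point for each of the 2 WT (blue) and 2 G3 Terc-/- (orange) libraries. The points of a group lie close together, with URR1 near 0.7% at the top in all 4 libraries and slightly lower in G3 Terc-/- than in WT.

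Few DNA transposon copies gave reads, and fewer still gave most of them. Of the 110969 copies, 14481 (13.0%) had at least 1 count in any library and 4818 (4.34%) had at least 5 counts over the 4 libraries, against 14.6% and 4.81% of all TE copies. The copies with at least 5 counts held 92.4% of the DNA transposon counts, and 206 copies held 50% of them. There were 25 copies with over 1000 counts, whereas the count per copy was 2.04 on average. Concentration differed between groups. URR1 counts were spread out, with 143 copies holding 50% of its counts, whereas 21 copies did so for Charlie, 23 for Tigger and 11 for MER20. For Zaphod a single copy, Zaphod2 copy 150, held 52.1% of the group's counts. Copies with reads were also rarer for Zaphod and Arthur, where 4.59% and 7.36% of the copies had a count, than for URR1 with 14.1%.

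The counts identify a copy by its repeat name and by a number that runs from the start again within each name. They carry no positions, so that whether a copy lies in a gene, and in which part of it, was not analysed here. The copy with the most counts was Charlie6 copy 58, with 867 and 913 counts in WT against 1033 and 825 in G3 Terc-/- libraries, which did not differ at the cutoffs (log2 fold change 0.16 with a standard error, SE, of 0.09, and an adjusted p = 0.534 by the quasi-likelihood test of edgeR). Tigger12 copy 142 came second, with 713 and 743 counts in WT against 1096 and 916 in G3 Terc-/- libraries. Every G3 Terc-/- library exceeded every WT library for this copy, and the log2 fold change was 0.57 (SE 0.09, edgeR adjusted p = 2.42e-05), short of a fold change of 2. Charlie24 copy 79 had 823 and 923 counts in WT against 942 and 621 in G3 Terc-/- libraries, and here the G3 Terc-/- replicates lay on either side of the WT replicates. MER20 copy 4080 had 751 and 767 counts in WT against 585 and 486 in G3 Terc-/- libraries, lower in both (log2 fold change -0.40, edgeR adjusted p = 0.0149). Tigger5 copy 1852 had 457 and 464 counts in WT against 691 and 557 in G3 Terc-/- libraries (log2 fold change 0.54, edgeR adjusted p = 0.000442). The remaining copies among the 8 with the most counts, Tigger1 copy 492, MER5A copy 7551 and Tigger19a copy 126, had log2 fold changes of -0.16, -0.29 and -0.13, none with an adjusted p-value under 0.05.

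Counts were then summed by repeat name, and edgeR was fitted on all 1072 names, of which 917 passed the filter on low counts. Of the 91 DNA transposon names, 81 were tested and 10 were too low, with 140 counts between them. A family was called past 1.5-fold with a P value under 0.05. At these cutoffs 1 DNA transposon family was higher in G3 Terc-/- ESCs, against a background of 5.13% of all families tested, and 0 were lower, against 2.94% of all families (8.07% in either direction). That family was MER20B, and it also had an adjusted p-value under 0.05. DESeq2 gave 1 and 0 as well, and at an unadjusted P value of 0.05 and any size edgeR had 4 families higher and 12 lower, against 18.2% and 18.1% of all families tested. The log2 fold changes of the 81 families had a median of -0.03 and quartiles of -0.15 and 0.06, whereas the median over all families was -0.00461 and the quartiles were -0.15 and 0.19. In 79 of the 81 families (97.5%) the estimate lay within a fold change of 1.5, as it did in 89.97% of all families tested. The libraries of the genotypes did not overlap in 18 families that were higher and 19 that were lower in G3 Terc-/- ESCs, against 36.5% and 23.8% of all families tested. The second family past 1.5-fold was Charlie21a, a family with 51 counts in all. It had 11 and 23 counts in WT against 9 and 8 in G3 Terc-/- libraries, with a log2 fold change of -0.94 (edgeR adjusted p = 0.197), or -1.35 without WT replicate 1.

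**Figure D2:**
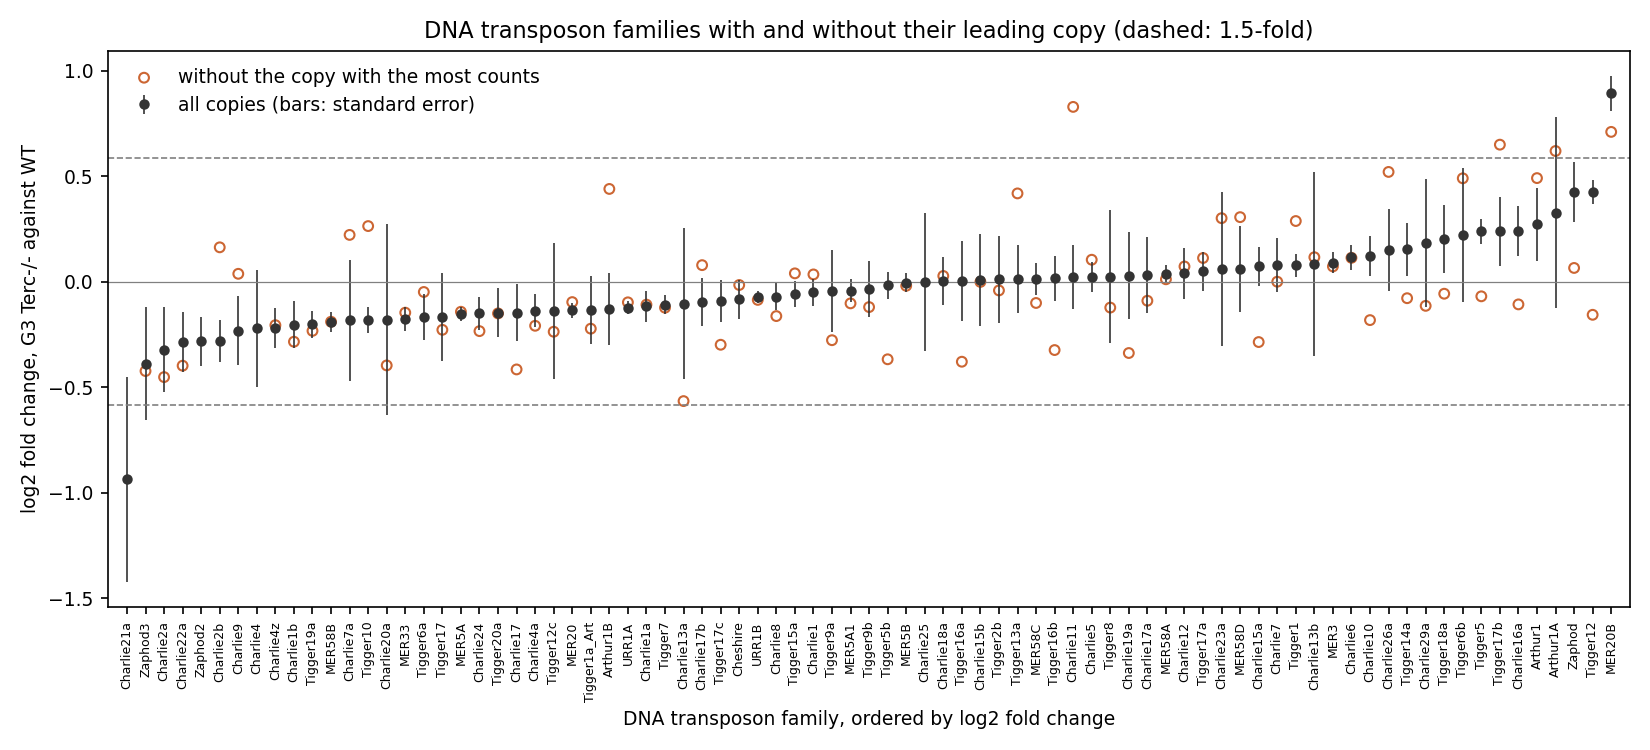
Log2 fold change of the 81 DNA transposon families tested (filled points, bars show the standard error) and of the same families without the copy with the most counts (open points, drawn for the 77 that still passed the filter). Dashed lines mark a fold change of 1.5. Filled points run from -0.94 for Charlie21a to 0.89 for MER20B, and the open points of Tigger12, Tigger5 and Tigger10 lie on the other side of 0.

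At any size 8 families passed the adjusted test, 3 higher and 5 lower in G3 Terc-/- ESCs, against 13.2% and 11.6% of all families. The 3 that were higher were MER20B, Tigger12 and Tigger5. Tigger12 had 861 and 894 counts in WT against 1229 and 1044 in G3 Terc-/- libraries, a log2 fold change of 0.43 (SE 0.06, edgeR adjusted p = 0.000443). Tigger5 had 943 and 934 counts in WT against 1152 and 983 in G3 Terc-/- libraries, with a log2 fold change of 0.24 (SE 0.06, edgeR adjusted p = 0.0127). Both were singled out after their values had been seen. Both are Tigger families in which 1 copy dominates, since the leading copy held 86.1% of the counts of Tigger12 and 54.1% of those of Tigger5. Without it the log2 fold changes were -0.16 and -0.07.

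The 5 families that were lower were MER5A, URR1A, MER58B, MER20 and Tigger19a, and they were among the 10 DNA transposon families with the most counts. URR1A had 6766 and 6867 counts in WT against 6457 and 5613 in G3 Terc-/- libraries, which as CPM of the TE counts was 3275 ± 16.5 (SD, n = 2) in WT against 3118 ± 11.7 (SD, n = 2) in G3 Terc-/- ESCs. In the edgeR fit URR1A had a log2 fold change of -0.12 (SE 0.03, edgeR adjusted p = 0.0126). In the same unit MER5A stood at 2127 ± 30.3 (SD, n = 2) in WT against 1983 ± 33.1 (SD, n = 2) in G3 Terc-/- ESCs, with a log2 fold change of -0.15. MER20 stood at 2247 ± 10.1 (SD, n = 2) and 2121 ± 65.7 (SD, n = 2), with a log2 fold change of -0.13. For MER58B and Tigger19a the log2 fold changes were -0.19 and -0.20. The fits use scaling factors of edgeR (TMM), which the CPM values do not. All 5 estimates lay further below 0 than the CPM values alone give. These differences are small, and they depended on the scale. With library sizes and factors taken from the gene counts, which moved the families by a median of 0.07 on the log2 scale, 0 of the DNA transposon families were lower by adjusted p-value and 4 were higher. The shares over all families on that scale are not given here, and those given above belong to the main fit. The number of DNA transposon families lower by adjusted p-value also moved when a library was left out.

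The other 5 of the most counted families did not pass the adjusted test. URR1B, the family with the most counts, had 8088 and 8324 counts in WT against 7914 and 7102 in G3 Terc-/- libraries, with a log2 fold change of -0.07 (SE 0.03, edgeR adjusted p = 0.105). MER58A had a log2 fold change of 0.04, MER5B of -0.00343, Tigger7 of -0.11 and MER3 of 0.09. MER5B lay at a CPM of 991.7 ± 26.9 (SD, n = 2) in WT against 1025 ± 9.12 (SD, n = 2) in G3 Terc-/- ESCs, and its estimate turned positive, to 0.07, with scaling by the gene counts. In these 10 families the leading copy held between 3.50% (URR1A) and 39.9% (Tigger19a) of the counts, and leaving it out changed no sign. The adjusted p-value of MER20 from edgeR was 0.0964 without its leading copy.

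A leading copy often weighed more in the other families. It held over 50% of the counts in 27 of the 81 families, under 10% in 7, and 32.1% in the median family. Of the 77 families that could be fitted without their leading copy, 24 had a log2 fold change of the other sign. Tigger10 was an example, chosen after its values had been seen. Its log2 fold change was -0.18 with all copies and 0.26 without copy 120, which had 378 and 396 counts in WT against 155 and 140 in G3 Terc-/- libraries. In Charlie2b the log2 fold change was -0.28 with all copies and 0.16 without copy 35. Without the leading copies MER20B was still the only DNA transposon family past the cutoffs.

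MER20B is a relative of MER20 with 831 copies, of which 22 had at least 5 counts. It had 306 and 313 counts in WT against 595 and 513 in G3 Terc-/- libraries. The family rose in CPM of the TE counts, from 148.7 ± 0.0722 (SD, n = 2) in WT to 286 ± 2.73 (SD, n = 2) in G3 Terc-/- ESCs, with a log2 fold change of 0.89 (SE 0.08, edgeR adjusted p = 2.67e-05). Copies 301, 302 and 303 held 67.5% of the family's counts in WT and 86.6% in G3 Terc-/- ESCs. Copy 301 had 54 and 57 counts in WT against 144 and 133 in G3 Terc-/- libraries. Copy 302 had 90 and 89 counts in WT against 225 and 182 in G3 Terc-/- libraries, and copy 303 had 64 and 64 in WT against 145 and 131 in G3 Terc-/- libraries. All 3 copies were higher in both G3 Terc-/- libraries than in either WT library, by 2.68-fold, 2.44-fold and 2.32-fold (edgeR adjusted p = 6.98e-08, 9.10e-09 and 2.27e-06). The other 828 copies together had 98 and 103 counts in WT against 81 and 67 in G3 Terc-/- libraries. Without the 3 copies, the log2 fold change of MER20B was -0.39 (SE 0.16, edgeR adjusted p = 0.0983). This fit was added after the values of the copies had been seen. The copies were left out because they were higher, so a fall in the estimate was fixed in advance. In counts, the net rise of MER20B lay in 3 copies with consecutive running numbers. Of the 22 MER20B copies tested, 4 (18.2%) were called higher and 1 (4.55%) lower without adjustment, against 4.7% and 3.87% of all TE copies. The lower one, MER20B copy 765, had 13 and 12 counts in WT against 1 and 1 in G3 Terc-/- libraries.

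**Figure D3:**
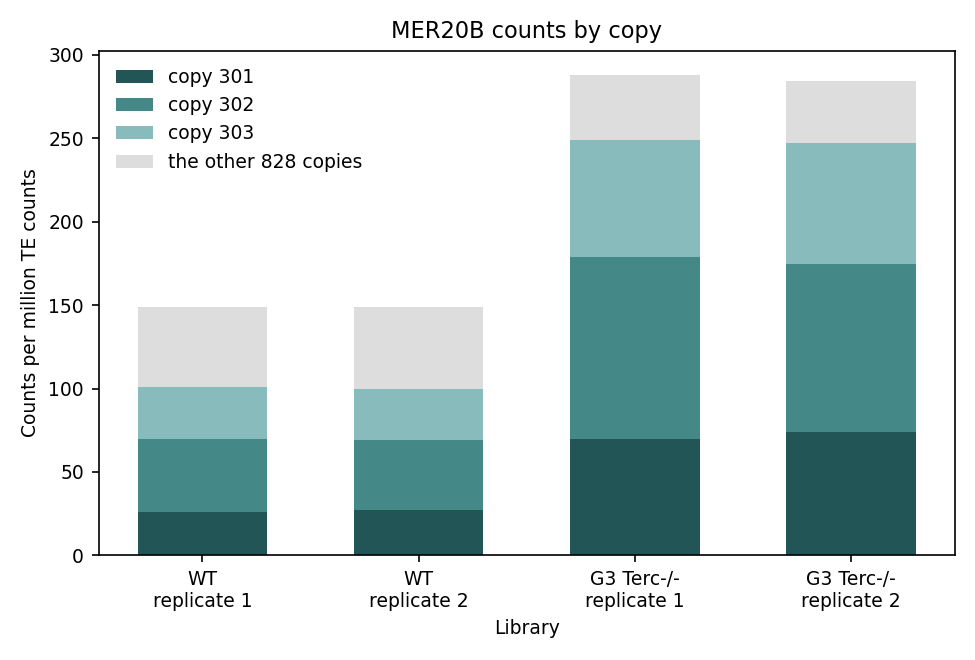
Counts of MER20B as CPM of the TE counts (vertical axis, starting at 0) in each of the 4 libraries, stacked by copies 301, 302 and 303 and the other 828 copies. The stack is near 149 in both WT libraries and near 286 in both G3 Terc-/- libraries, and the grey part for the other copies is smaller in G3 Terc-/- ESCs.

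Single copies were tested next, with edgeR fitted on the 176114 TE copies that had at least 5 counts and calls past 2-fold with a P value under 0.05. Among the 4818 DNA transposon copies tested, 170 (3.53%) were higher in G3 Terc-/- ESCs, against 4.7% of all TE copies, and 205 (4.25%) were lower, against 3.87% of all TE copies. MIR, L2 and L3 copies stood at 3.10% higher and 4.01% lower of 8955 tested. The median copy that was called had 16 counts over the 4 libraries, beside 11 for all DNA transposon copies tested, and 56.8% of the called copies had under 20, beside 68.1% of those tested. Of the copies that were higher, 51 had 0 counts in both WT libraries, and of those that were lower, 65 had 0 in both G3 Terc-/- libraries. Such copies passed the filter of 5 counts only through the genotype where they were high, and they are part of the shares above. Their share among all TE copies called is not given here. Among the 342 copies with 100 or more counts, 2.92% were higher and 3.51% lower, beside 4.12% and 3.96% of all TE copies at that depth. Among the 3280 copies with 5 to 19 counts, 3.05% were higher and 3.45% lower, beside 3.89% and 3.28%. Among the 1196 copies with 20 to 99 counts, 5.02% were higher and 6.69% lower, whereas 7.12% and 5.51% of all TE copies at that depth were. By group, 47 copies were higher and 67 lower among 1609 of URR1, 41 and 37 among 783 of Tigger, 29 and 23 among 740 of Charlie, and 12 and 18 among 423 of MER5A. Of 342 copies of MER20 and MER20B, 11 were higher and 18 lower. MER58 had 10 higher and 17 lower of 355, MER3 with MER33 had 6 and 16 of 263, and MER5B had 9 and 7 of 201. Cheshire, Arthur and Zaphod together had 5 copies higher and 2 lower of 102.

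When the p-value had to be under 0.05 after adjustment, 18 DNA transposon copies were higher and 18 were lower, or 0.374% each, against 0.634% and 0.366% of all TE copies. They belonged to 17 names. At any size 52 copies passed by adjusted p-value, against 1.28% of all TE copies. Tigger contributed 6 in each direction, URR1 4 higher and 5 lower, MER5A (with MER5A1) 1 and 5, MER20 with MER20B 3 and 2, and Charlie 2 and 0. MER5B and MER33 added 1 copy each, both higher, and none came from MER58, MER3, Cheshire, Arthur or Zaphod. DESeq2 had 9 higher and 9 lower by adjusted p-value, all of them among these. The adjusted calls of edgeR did not hold with G3 replicate 1 or G3 replicate 2 left out, where a lone library stood for the genotype. Calls of those fits have no share over all TE copies beside them and are not compared here.

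**Figure D4:**
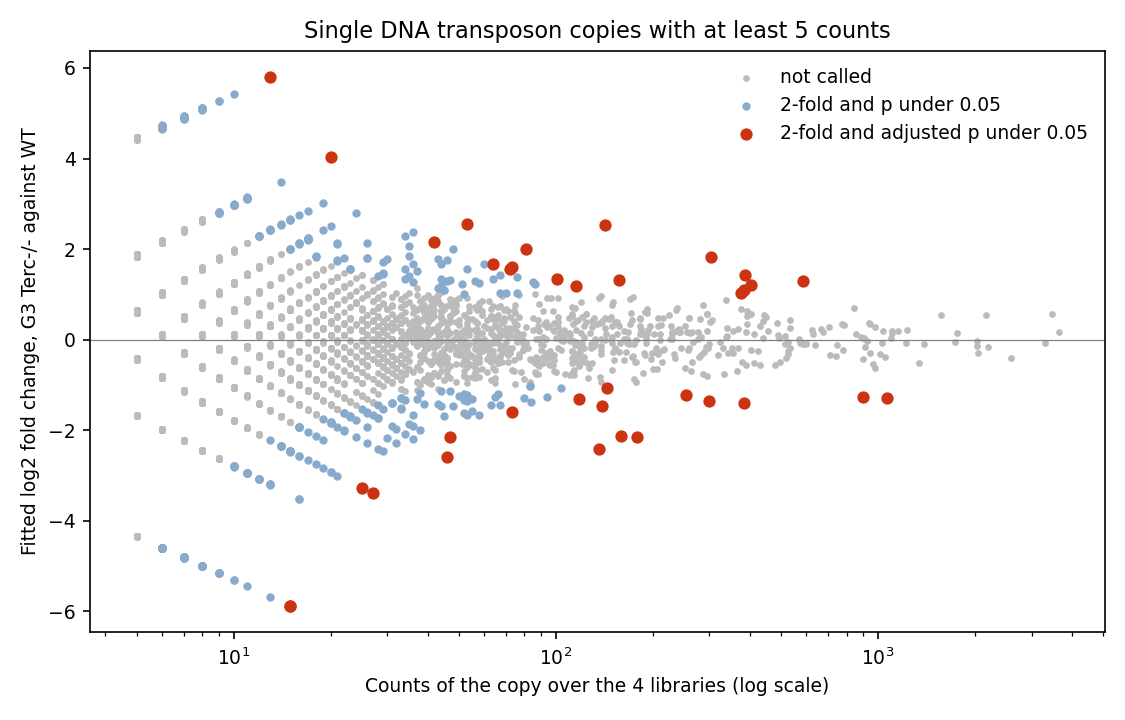
Fitted log2 fold change (vertical axis) against counts over the 4 libraries (horizontal log axis) for the 4818 DNA transposon copies tested. Blue points passed 2-fold with a P value under 0.05, and red points also an adjusted p-value under 0.05 (18 higher, 18 lower). The stripes at the left are the whole-number counts of weakly covered copies, and the red point furthest to the right is Tigger10 copy 120 with 1069 counts.

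Tigger1 held 3 of the copies that were higher. Tigger1 copy 949 had 32 and 39 counts in WT against 120 and 113 in G3 Terc-/- libraries, 3.52-fold higher (log2 fold change 1.82, SE 0.21, edgeR adjusted p = 2.51e-09). Tigger1 copy 297 had 8 and 14 counts in WT against 55 and 65 in G3 Terc-/- libraries, 5.83-fold higher (edgeR adjusted p = 8.31e-08). Its neighbour in number, Tigger1 copy 298, had 7 and 1 counts in WT against 22 and 23 in G3 Terc-/- libraries. In all 3 copies both G3 Terc-/- libraries exceeded both WT libraries, though copy 298 had only 53 counts in all. Of the 73 Tigger1 copies tested, 10 (13.7%) were called higher and 3 (4.11%) lower without adjustment, against 4.7% and 3.87% of all TE copies. Tigger1 was picked after its values had been seen. The family as a whole had a log2 fold change of 0.08, and copy 492 held 44.2% of its counts and had 629 and 563 counts in WT against 551 and 447 in G3 Terc-/- libraries. Without copy 492 the log2 fold change of Tigger1 was 0.29 (edgeR adjusted p = 0.0116), below the cutoff for families.

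Among the 10 higher copies with the smallest p, those not yet described came from the Tigger, URR1, MER5A and MER33 names. Tigger10 copy 200 had 50 and 77 counts in WT against 154 and 102 in G3 Terc-/- libraries (log2 fold change 1.11), and URR1B copy 3966 had 63 and 66 in WT against 139 and 108 in G3 Terc-/- libraries (log2 fold change 1.04). MER5A1 copy 2729 was low throughout, with 9 and 8 counts in WT against 29 and 35 in G3 Terc-/- libraries (log2 fold change 2.01). These copies passed with adjusted p-values of 8.27e-05, 0.000120 and 0.00157 from edgeR, but Tigger10 copy 200 fell below 2-fold without WT replicate 1 or G3 replicate 1 (log2 fold changes of 0.84 and 0.87), and URR1B copy 3966 without G3 replicate 1 (0.93). MER33 copy 1841 had 6 and 41 counts in the WT libraries, so that its replicates differed more than the genotypes did for many copies, and 59 and 51 in the G3 Terc-/- libraries. Its log2 fold change of 1.33 was 0.53 without WT replicate 1, and DESeq2 did not call this copy.

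Among the copies that were lower, Tigger10 copy 120 had the smallest p. It had 378 and 396 counts in WT against 155 and 140 in G3 Terc-/- libraries, 2.44-fold lower (log2 fold change -1.29, SE 0.13, edgeR adjusted p = 9.62e-12). URR1A copy 8250, the leading copy of its family, had 336 and 313 counts in WT against 137 and 113 in G3 Terc-/- libraries (log2 fold change -1.27, edgeR adjusted p = 1.17e-10). In both copies the G3 Terc-/- libraries lay far below the WT libraries, without overlap. MER5A copy 6957 had 132 and 153 counts in WT against 58 and 42 in G3 Terc-/- libraries, and MER5A1 copy 993 had 113 and 106 in WT against 43 and 37 in G3 Terc-/- libraries, with log2 fold changes of -1.41 and -1.35. URR1B copies 7760 and 7761, also neighbours in number, had 75 and 56 and 81 and 67 counts in WT, and 19 and 9 and 23 and 8 in G3 Terc-/- libraries. They were 4.34-fold and 4.43-fold lower (edgeR adjusted p = 2.25e-06 and 5.80e-07). Tigger7 copy 1688 had 59 and 57 counts in WT against 11 and 9 in G3 Terc-/- libraries, and Tigger7 copy 1692 had 84 and 97 in WT against 48 and 24 in G3 Terc-/- libraries. The last of these was at a log2 fold change of -0.89 without G3 replicate 2, short of a fold change of 2. MER5A copy 2707 and Tigger17c copy 634 had log2 fold changes of -1.46 and -2.59, the second on 46 counts in all. Tigger17c copy 634 and Tigger1 copy 298 had p-values above 0.05 when either G3 Terc-/- library was left out.

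The log2 fold changes of copies with consecutive running numbers were compared as a description, without a test. Over 154 pairs of DNA transposon copies of 1 name whose numbers differed by 1 and that had at least 20 counts each, they correlated with Pearson's r = 0.52. Over all 774 such pairs with at least 5 counts r was 0.19, and at a difference of 2 it was 0.04 over 377 pairs, of which 1 went in opposite directions. In 6 of the 154 pairs both copies were higher at the unadjusted cutoffs, in 3 both were lower, and 0 pairs went in opposite directions. Among 9973 such pairs over all TE copies, 223 were both higher, 191 were both lower and 4 went in opposite directions. With at least 20 counts and numbers that differed by 2, r was 0.61 over 48 pairs, by 5 it was -0.03 over 37 pairs, and by 50 it was -0.30 over 23 pairs. The same measure over all TE copies with at least 20 counts was 0.52 for neighbours and 0.13 at a distance of 50. The pairs share libraries, and copies are not independent replicates. Whether neighbours in number lie in the same transcript was not tested.

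The 8 LTR names that share the prefix MER3 held 0.224% and 0.220% of the TE counts in WT against 0.182% and 0.205% in G3 Terc-/- libraries. Most of it was MER34B-int, the internal part of an LTR element, with 2797 and 2764 counts in WT against 1997 and 2021 in G3 Terc-/- libraries (log2 fold change -0.41, SE 0.06, edgeR adjusted p = 0.00131), below the cutoff for families. Its leading copy, number 65, held 49.96% of these counts. Of the 80 copies of these names that were tested, 4 (5%) were higher and 1 (1.25%) was lower, against 4.7% and 3.87% of all TE copies.

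Host genes that carry a domesticated transposase, or a DNA-binding domain shared with one, were examined beside the copies. Of 28 genes listed, 27 were in the gene counts and 24 were tested. Past 2-fold with a P value under 0.05, 1 was higher in G3 Terc-/- ESCs and 0 were lower, against 4.73% and 3.13% of all genes, and the median log2 fold change was 0.00595, beside 0.00625 over all genes tested. By adjusted p-value at any size 3 were higher and 5 lower, against 21.7% and 21.8% of all genes. Rag1 and Rag2, the recombinase of antigen receptor genes, and Tigd4 had 0 counts in all 4 libraries, each of which allows up to 3 counts.

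Jrk, whose product resembles the centromere protein CENP-B, was the gene that passed. Jrk (chromosome 15, 74702412 to 74709322, GRCm38) had 104 and 147 counts in WT against 295 and 191 in G3 Terc-/- libraries. The replicates of each genotype were spread, but both G3 Terc-/- libraries exceeded both WT libraries (log2 fold change 1.07, SE 0.15, edgeR adjusted p = 1.84e-07), and the fold change fell below 2 without WT replicate 1 or without G3 replicate 1. Cenpb, which encodes a pogo-derived protein that binds centromeric satellite DNA, had 1159 and 1167 counts in WT against 1599 and 1223 in G3 Terc-/- libraries (log2 fold change 0.40, edgeR adjusted p = 4.09e-06). Pogz, which encodes a chromatin protein with a pogo transposase domain, had a log2 fold change of 0.15 (edgeR adjusted p = 0.0259), and its adjusted p-value was above 0.05 with DESeq2 (0.0879) and in edgeR without WT replicate 1 (0.223) or WT replicate 2 (0.121).

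The 5 genes that were lower were Thap3, Tigd2, Thap11, Zbed5 and Pgbd1. Thap3 encodes a protein with the THAP domain that is also found in P element transposase, and had 266 and 272 counts in WT against 187 and 136 in G3 Terc-/- libraries (log2 fold change -0.62, edgeR adjusted p = 0.000135). Thap11, known as Ronin and needed for ESC self-renewal, had 890 and 780 counts in WT against 684 and 552 in G3 Terc-/- libraries (log2 fold change -0.31, edgeR adjusted p = 0.00132), a call that was lost without WT replicate 1. Tigd2, a Tigger-derived gene, had 311 and 260 counts in WT against 177 and 167 in G3 Terc-/- libraries (log2 fold change -0.60, edgeR adjusted p = 0.000190). Tigd2 lies on chromosome 6 of GRCm38 from 59208870 to 59212033, among 129 tested genes between 45 and 80 Mb, a region chosen with earlier results known, whose median log2 fold change was -0.90, and the part of that region in the value of Tigd2 was not tested. Pgbd1, derived from a piggyBac element, had 91 and 88 counts in WT against 56 and 50 in G3 Terc-/- libraries, and Zbed5, related to hAT transposases, had 346 and 353 in WT against 279 and 234 in G3 Terc-/- libraries. Their log2 fold changes were -0.63 and -0.32 (edgeR adjusted p = 0.0149 and 0.0138). Neither passed with DESeq2 (adjusted p = 0.133 and 0.113), and in edgeR both lost the call without WT replicate 1 or G3 replicate 1, and Zbed5 also without WT replicate 2. The DNA transposon names and the genes derived from transposases were counted in separate tables, and the reads behind one and the other were not compared.

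**Figure D5:**
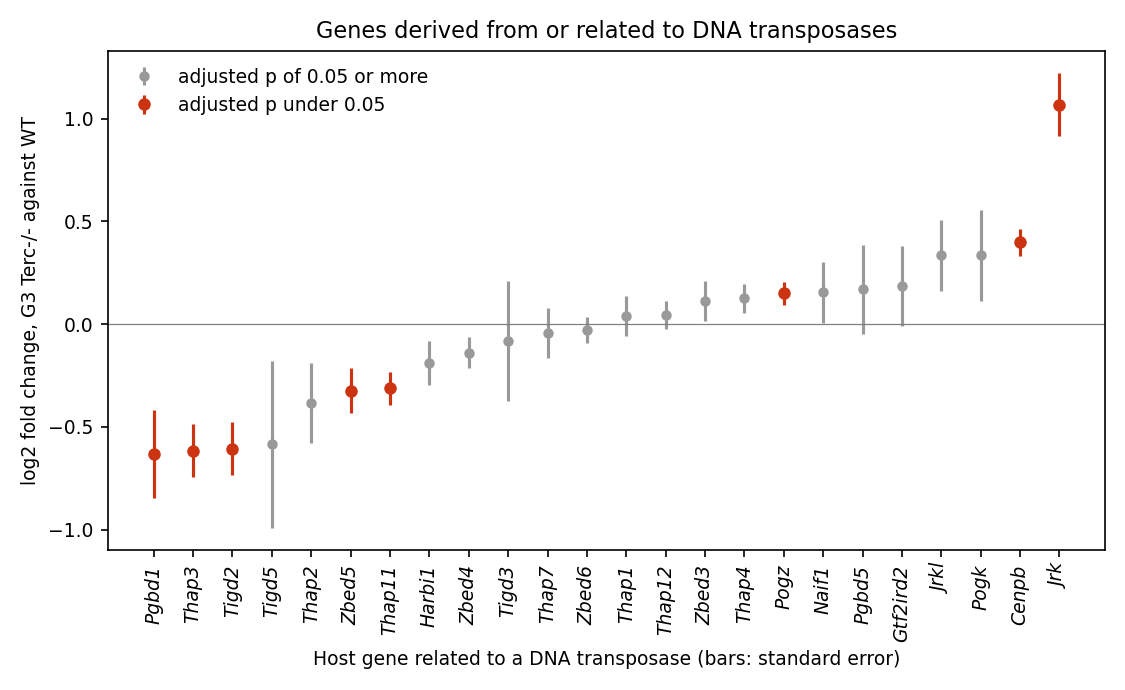
Log2 fold change (points) with standard error (bars) of the 24 tested host genes that derive from DNA transposases or share a domain with them. Red points had an adjusted p-value under 0.05 (3 higher, 5 lower), and Jrk at 1.07 is the only one past a fold change of 2.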

How the data were processed

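RNA-seq of ESCs was analysed for 2 WT and 2 G3 Terc-/- libraries. The submitters' processing notes name Trim Galore, STAR, featureCounts and mm10, and counting options and strand setting are not given in the sources used here. The authors deposited both tables as raw counts, per gene and per TE copy, without normalization.

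From these, counts were summed by repeat name, once over all copies and once leaving out the leading copy. Differences were tested with edgeR 4.0.16 in R 4.3.3 (TMM factors, a quasi-likelihood test on genotype alone, and Benjamini-Hochberg adjustment over the whole table). The filter was filterByExpr for families and genes, and a sum of 5 or more counts for copies. Standard errors were derived from the quasi-likelihood F statistic. The fits were run on simulated counts with planted changes larger than most of those reported here, so that run does not cover smaller changes. Alternatives were DESeq2 1.42.0, its size factors, scaling by gene counts, other filters, the replicate block and each library left out. Of 24116 gene identifiers, 24061 matched a symbol in RefSeq's GRCm38.p6 annotation.

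The text names the 10 DNA transposon families with the most counts and those past the cutoffs, the 8 copies with the most counts, the leading copy of named families where it bears on them, the 10 copies with the smallest p in each direction among those past the cutoffs by adjusted p-value, and the listed genes with an adjusted p-value under 0.05. Others were chosen after their values were seen. The members and lists were chosen with earlier results of these data known. Superfamilies were assigned by naming convention. Figures were drawn with matplotlib 3.10.9.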

Additional observations from a re-analysis of the deposited data

How the results depend on the processing

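The count of DNA transposon families past the cutoffs stayed at 1 higher in every alternative other than MER20B without copies 301, 302 and 303, and 0 were lower except without WT replicate 1, where it was 1 (Charlie21a), a range of 0 to 1. Counts of copies moved most. They were 170 higher and 205 lower as reported, 44 and 54 with DESeq2, 49 and 58 with filterByExpr (928 tested), 70 and 94 with at least 20 counts (1538 tested) and 18 and 18 when the p-value was adjusted. A paired fit, with a replicate block, gave 103 and 128. With each library left out they ranged from 55 to 127 higher and from 133 to 166 lower, with 55 and 67 higher without G3 replicate 1 and 2. These ranges do not show that the same copies were called. With either G3 Terc-/- library left out, most of the copies called lower were not among the 205 of the main fit. Most of those called higher were among the 170, and with either WT library left out most calls in both directions were shared with the main fit. The 2 replicate numbers showed little shared deviation (a correlation of 0.0616 over genes, -0.0470 over families and 0.00668 over copies with at least 20 counts). With 2 libraries per genotype, this cannot show whether libraries of the same number share a batch. The 5 families lower at any size by adjusted p-value came to 3 with DESeq2, 2 with the replicate block, 0 with scaling by the gene counts and 2 to 8 with each library left out (2 without either WT replicate, 8 without G3 replicate 2), while those higher ranged from 3 to 4. Of the transposase-derived genes, the 1 past a fold change of 2 ranged from 0 to 1 with each library left out (0 without WT replicate 1 or G3 replicate 1). The 5 lower by adjusted p-value were 3 with DESeq2 and 2 to 5 with each library left out (2 without WT replicate 1). The shares over all TE copies, families or genes under these alternatives are not given here, so the counts describe the dependence on processing alone. The causes were not tested.

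The difference in share of TE counts, -0.00653 percentage points, was -0.0368 without leading copies and -0.0398 without copies of over 10000 counts, 0.00288 over copies with at least 5 counts, and -0.0157 to 0.00267 with each library left out. As CPM of the gene counts it turned to 99.9. Among the 58 single families, copies and genes, the sign changed for MER5B (0.00274 with DESeq2, 0.069 with scaling by gene counts, and from -0.032 to 0.026 with each library left out, positive without WT replicate 1 or G3 replicate 1), and without the leading copy for Tigger12 (-0.16), Tigger5 (-0.069), Tigger10 (0.26) and Charlie2b (0.16). MER20B was at -0.39 without copies 301, 302 and 303. This alternative was chosen after seeing the data and left out these copies because they were higher. With each library left out, Charlie24 copy 79 ranged from -0.30 to 0.13 (positive without WT replicate 2 or G3 replicate 2), Tigger19a copy 126 from -0.27 to 0.019 (positive without WT replicate 2) and MER5B copy 1239 from -0.026 to 0.11 (negative without WT replicate 2 or G3 replicate 1). With a library left out, the lone library of a genotype is assumed to vary like the others.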
